A study of Danio rerio with 24 samples.

Results

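The comparison described here is the step from 12 h to 24 h after amputation in the caudal fin of control zebrafish (Danio rerio). Its members were chosen by the titles of the samples: the 3 arrays of control fins at 24 h were set against the 3 of control fins at 12 h, which makes 6 of the 24 arrays of the series. The series measured total RNA of the caudal fin on Affymetrix zebrafish arrays at 4 times in 2 arms, with 3 arrays in each of the 8 groups. The fish were wild type in both arms. Control fish had been injected with citrate buffer according to the treatment protocol, although the series design calls them untreated. Memory fish, the other arm, had been given streptozocin at 350 mg/kg, which kills pancreatic beta cells, and had then spent 60 days off the drug. Each time point had 3 samples, taken from 15 fins, per the labels' protocols. Whether 15 is the number per sample or per time, whether the 3 samples share fish, and the time of day of each collection are not given in the sources used here. Should fish be shared, the spread behind each p-value is that between these samples alone and may be technical.

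A zebrafish fin regrows after amputation in an ordered series of steps. Epidermal cells first migrate over the stump while cells at the wound switch on immediate early genes, stress proteins and inflammatory signals. Mesenchymal cells beneath this wound epidermis then lose their differentiated features, gather at the stump and divide as the blastema, the mass of progenitor cells from which bone, connective tissue and the fin's stiff actinotrichia fibres are rebuilt. The interval between 12 and 24 h falls between the closing of the wound and the appearance of a dividing blastema, and the comparison asks which genes change over it. Fin tissue is a mixture of cells, so that a change in the number of cells of a type and a change in RNA per cell cannot be told apart.

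The authors' values are log2 signals per probe set, and a difference of 1 is a factor of 2. Of 15502 probe sets other than array controls, the 10140 with a log2 signal of at least 4 on at least 3 of the 24 arrays were tested. They include 6451 genes with a single symbol, each represented by the probe set of the highest mean level. The tissue matched its label by the epidermal markers fixed for it, as krt4, krt5, tp63, epcam and cdh1 lay between 10.76 and 14.67 on the 6 arrays, and none of these 5 was called. All 4 skeletal muscle markers on the array stayed at or below 2.45, and the liver, pancreas, lens, heart and germ cell markers at or below 3.23. This holds for the fixed markers alone: the glucagon gene gcga reached 5.38 on 1 of the 12 h arrays, the muscle troponin gene tnnt3b lay between 4.06 and 5.01 on the 6 arrays, and the intestinal cadherin gene cdh17 between 5.32 and 5.89. Their part in the results was not tested.

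The arrays of a group resembled each other closely, with correlations of 0.978 to 0.988 among the 12 h arrays and 0.991 to 0.994 among the 24 h arrays. Between the times the correlations were 0.970 to 0.981. Of the 12 h arrays replicate 3 stood closest to the later time, at 0.978 to 0.981 with the 24 h arrays. Within its own group it correlated at 0.978 with replicate 1 and at 0.988 with replicate 2. The 18 hybridisation control probe sets, which report on handling of the arrays and not on the fin, averaged 10.01 to 10.24 at 12 h and 9.76 to 9.87 at 24 h, without overlap. The labels name no batch, and any difference in the handling of the 2 sets of arrays cannot be told apart from time. The signal of 3' over 5' probe sets for GAPDH, a sign of RNA quality, was 1.04 to 1.47 at 12 h and 1.3 to 1.51 at 24 h on the log2 scale.

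Between 12 and 24 h, 1140 probe sets rose and 901 fell in limma at a Benjamini-Hochberg adjusted p under 0.05, which is 11.2% and 8.89% of those tested. A change of at least 2-fold was met by 193 of the risen (1.9% of those tested) and 144 of the fallen probe sets (1.42%). By gene, 751 of 6451 rose (11.6%) and 626 fell (9.70%), and the median change over all genes was -0.01. These shares are the background against which each gene group is read. In the gene groups below, counts of 3 or fewer moved by at most 2 when any 1 array was left out. The spread was pooled over all 24 arrays. When limma was fitted to the 6 arrays alone, 438 probe sets rose and 252 fell. Leaving out replicate 3 of the 24 h group left 523 falling probe sets, and leaving out replicate 2 of that group left 585.

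The largest rises were those of structural proteins of the growing fin. The gene and1 (NCBI Gene 794315) encodes actinodin 1, a structural protein of the actinotrichia. Its log2 signal was 3.70, 3.52 and 4.02 on the 3 arrays at 12 h and 9.08, 9.15 and 9.0 at 24 h. It went from near the floor of the array to a high level, and the groups were far apart. The rise was 5.33 ± 0.20, or 40.3-fold, with an adjusted p of 5.2e-13 in limma (n = 3 arrays a time). Here and below ± is the standard error of the fit, with its spread pooled over all 24 arrays. With the 12 h arrays near the floor, the size of this fold and its rank depend on where the floor lies. Its paralog and2 lay at 3.04, 2.82 and 3.58 at 12 h and at 4.55, 5.00 and 4.63 at 24 h. The rise of and2 was smaller, at 1.58 ± 0.23.

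The second largest rise was that of enam (NCBI Gene 555617), named for enamelin, a matrix protein known from mammalian tooth enamel. Its signal was 2.53, 3.05 and 3.01 at 12 h and 7.07, 6.05 and 7.49 at 24 h, a change of 4.01 ± 0.31 or 16.1-fold. The basement membrane gene frem3, of the Fras and Frem family that anchors epidermis to dermis, measured 3.41, 2.96 and 3.53 at 12 h and 6.57, 6.30 and 6.74 at 24 h, and rose by 3.23 ± 0.15. Both genes were at or near the floor on every 12 h array, so that the sizes of their folds depend on that floor. The chromatin protein hmgb3a rose by 3.01 ± 0.40, the zinc-finger factors zic2b and zic2a by 2.65 ± 0.21 and 2.25 ± 0.18, and sh3gl2a, an endophilin of membrane traffic, by 2.32 ± 0.14. On the 12 h arrays hmgb3a lay at 2.83 to 4.12, zic2b at 3.41 to 4.05 and sh3gl2a at 3.30 to 3.43. These levels are near the floor too, and the sizes of those folds and their ranks depend on it. The calmodulin-binding protein gene pcp4a rose by 1.93 ± 0.27, gdf6a, a ligand of the Bmp family, by 1.86 ± 0.26, and aldh1a2, which makes retinoic acid, by 1.79 ± 0.14. The other genes among the 15 largest rises were the mitotic genes cdc20, tacc3, prc1b, ccnb1 and anln, given with their group.

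The largest fall was that of gda (NCBI Gene 553701), guanine deaminase, a purine-degrading enzyme. Its signal was 6.76, 6.74 and 7.0 at 12 h and 4.12, 4.1 and 3.63 at 24 h, a fall of 2.88 ± 0.21 on the log2 scale or 7.38-fold. The injury-induced transcription factor atf3 (NCBI Gene 393939) measured 9.67, 9.87 and 7.45 at 12 h and 7.03, 6.17 and 5.75 at 24 h. It fell by 2.68 ± 0.53 on the log2 scale, and replicate 3 of the 12 h group lay far nearer to the 24 h arrays than the other two. The growth cone protein gene gap43, known from regrowing axons, fell by 2.35 ± 0.23 on the log2 scale. It does not stand for the nerve and Schwann cell list, in which 3 of 19 tested members rose (15.8%) and 4 fell (21.1%). Over all genes 11.6% rose and 9.70% fell. Regrowth of axons was not measured. Its 3 arrays at 12 h lay between 7.73 and 7.83 and those at 24 h between 5.25 and 5.68.

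Other genes among the 15 largest falls had varied roles. The gene ppp1r15a, whose product restores translation after stress, fell by 1.96 ± 0.30 on the log2 scale, and mknk2b, a kinase of the cap-binding factor eIF4E, fell by 2.08 ± 0.27. The junctional adhesion molecule jam2a fell by 2.2 ± 0.20. Further falls among the 15 largest were those of plekhf1, an endosomal adaptor, by 2.63 ± 0.50, of tnfsf10l4, a ligand of the Tnf family, by 1.82 ± 0.44, of dachb, a transcriptional cofactor, by 1.71 ± 0.34, and of apodb, an apolipoprotein D, by 1.74 ± 0.31. The transporter gene slc6a17 of the Slc6 family fell by 1.98 ± 0.35 and the glucagon gene gcga by 1.97 ± 0.40. The 12 h arrays of gcga were uneven, at 2.64, 4.48 and 5.38, against 2.12 to 2.28 at 24 h. The calls of plekhf1, slc6a17, gcga, tnfsf10l4 and dachb were lost when the 6 arrays were fitted alone with the replicate number as a block. Whether they held in the fit of the 6 arrays without that block is not listed here.

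**Figure D1:**
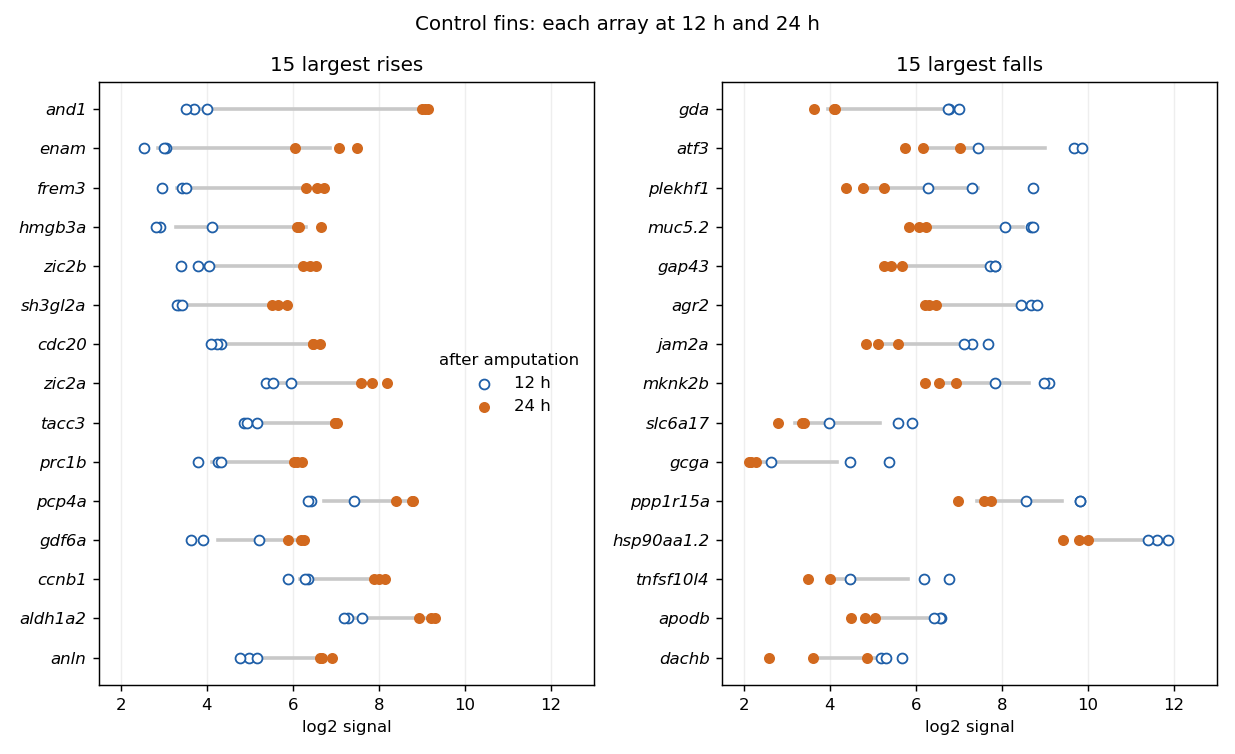
Log2 signal of the 15 genes with the largest rise (left) and the largest fall (right) in control fins, with open circles for the 3 arrays at 12 h, filled circles for the 3 at 24 h and a bar joining the means. For and1 the 12 h arrays lie at 3.52 to 4.02 and the 24 h arrays at 9.0 to 9.15, and no gene shown has overlapping groups because the choice required it.

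Of the gene lists with at least 10 tested members, the one with the largest share of risen genes was that of mitosis and cytokinesis, the machinery that separates chromosomes and divides the cell. Of its 76 tested members 56 rose and 0 fell, against 11.6% of all genes rising, and the median change of the list was 0.80. Another 21 members on the array did not reach the signal needed for testing, and since a member could pass through its 24 h level alone, the tested members are not all members. Leaving out 1 array at a time gave 50 to 54 rising members, and up to 2 falling ones without replicate 1 of the 24 h group.

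The members cover the order of events in division. Entry into mitosis is driven by cyclin B and its kinase: ccnb1 measured 6.35, 5.89 and 6.28 at 12 h and 8.01, 8.14 and 7.89 at 24 h, and cdk1 measured 7.23, 7.0 and 7.52 against 9.04, 8.94 and 9.0. Both rose, ccnb1 by 1.84 ± 0.25 and cdk1 by 1.74 ± 0.17, and in neither did the groups overlap. The mitotic kinases plk1 and aurka rose by 1.54 ± 0.20 and 1.53 ± 0.19, and the spindle checkpoint kinase ttk, a gene needed for fin regeneration in zebrafish, by 1.2 ± 0.17. Of the spindle proteins, tacc3 rose by 2.01 ± 0.16, the motor kif11 by 1.63, and the kinetochore motor cenpe by 1.67. The chromosomal passenger genes incenp and cdca8 rose by 1.55 ± 0.22 and 1.69 ± 0.20.

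The exit from mitosis was represented by cdc20, the activator that sets off the destruction of cyclin B. Its signal was 4.33, 4.24 and 4.09 at 12 h and 6.46, 6.62 and 6.47 at 24 h, a rise of 2.29 ± 0.18 with an adjusted p of 3.8e-08 in limma. The cytokinesis genes prc1b and anln, which bundle the central spindle and scaffold the contractile ring, rose by 1.99 ± 0.20 and 1.77 ± 0.15. The cyclin ccna2 rose by 1.28 ± 0.19 and foxm1, a transcription factor of mitotic genes, by 0.93 ± 0.22. The call of foxm1 was lost when the 6 arrays were fitted alone with the replicate number as a block. Whether it held without that block is not listed here.

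DNA replication and nucleotide supply moved less. Of 68 tested members 12 rose and 3 fell, and the median change was 0.06. Without replicate 2 of the 12 h group the rising members were 7, and without replicate 2 or replicate 3 of the 24 h group the falling member was 1. The nucleotide enzymes tyms and dut rose by 0.82 ± 0.13 and 0.64 ± 0.13, and impdh2, of guanine nucleotide synthesis, fell by 0.45 ± 0.11. The sliding clamp pcna stood at 11.43, 11.32 and 11.44 at 12 h and 11.65, 11.89 and 11.76 at 24 h. Its rise of 0.37 ± 0.10 started from a high level, and its call was lost without replicate 2 of the 12 h group (adjusted p = 0.058 in limma) and without replicate 2 of the 24 h group (0.077).

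The 5 tested subunits of the MCM helicase, which opens the DNA for replication, changed by -0.29 to -0.09, and none was called. Their lowest adjusted p in limma was 0.16. On the 12 h arrays mcm2 measured 8.15, 8.21 and 8.55 and mcm5 measured 8.27, 8.09 and 8.36, so that these subunits were well above the floor at the earlier time. The 24 h arrays lay at 7.86 to 8.11 for mcm2 and at 7.86 to 8.10 for mcm5. The calls of dut, impdh2 and pcna were lost in the fit of the 6 arrays alone.

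**Figure D2:**
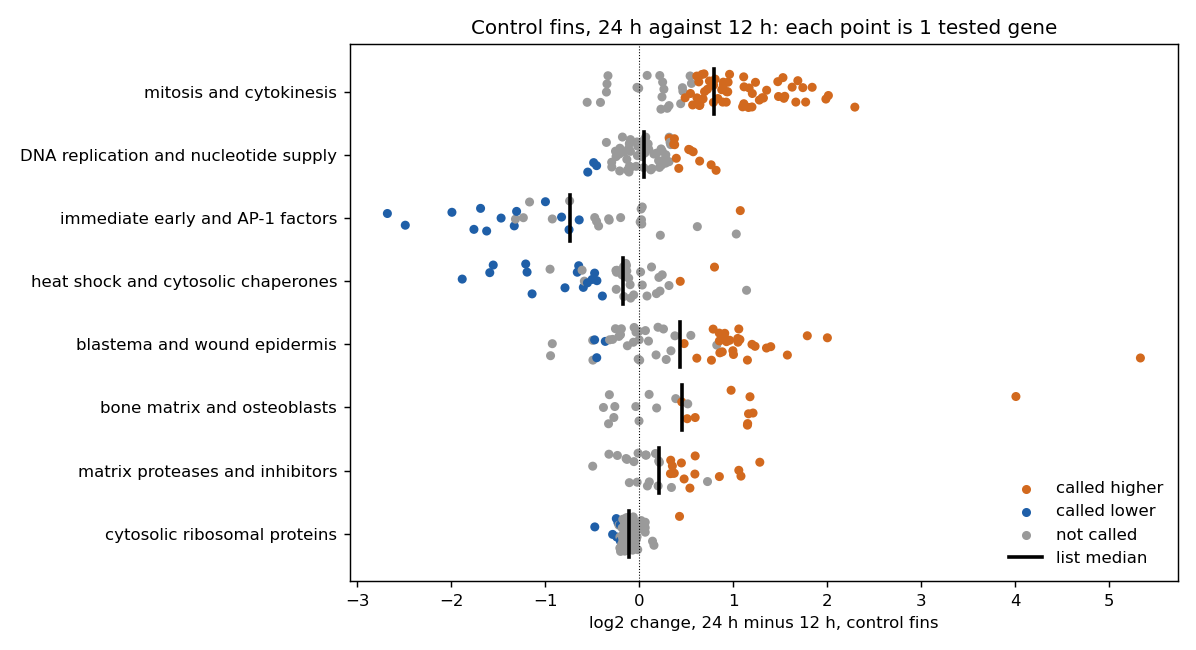
Log2 change from 12 to 24 h in control fins of each tested gene of 8 gene lists, coloured by its call in limma, with a black bar at the median of the list. The mitosis and cytokinesis list has a median of 0.80, the DNA replication and nucleotide supply list 0.06, the immediate early and AP-1 list -0.74 and the cytosolic ribosomal proteins -0.11.

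Immediate early genes, transcription factors and phosphatases that cells switch on within minutes of injury, went the other way. Of 33 tested members 13 fell, against 9.70% of all genes falling, and 1 rose, with a median change of -0.74. The count of falling members was 6 without replicate 3 of the 24 h group and 7 without replicate 2 of the 12 h group and 18 without replicate 3 of the 12 h group. These genes were uneven at the earlier time: in 24 of the 33 members replicate 3 was the lowest of the 12 h arrays.

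The stress-responsive factor klf2b fell by 1.47 ± 0.29 on the log2 scale, from 10.40, 10.65 and 9.78 to 9.01, 8.84 and 8.58. The early response gene ier5 fell by 1.00 ± 0.23, the phosphatase dusp5, which switches off Erk kinases, by 1.33 ± 0.32, and fosl1b, a Fos family member, by 0.75 ± 0.15. The orphan receptor nr4a1 fell by 1.99 ± 0.56, the phosphatases dusp1 and dusp2 by 1.76 ± 0.49 and 1.62 ± 0.40, and the epithelial factor klf4 by 1.69 ± 0.46. Those 4 calls were lost when single arrays were left out. Without replicate 3 of the 24 h group the adjusted p in limma was 0.11 for nr4a1, 0.083 for dusp1, 0.056 for dusp2 and 0.098 for klf4. Without replicate 2 of the 12 h group it was 0.083 for nr4a1, 0.073 for dusp1 and 0.077 for klf4, and without replicate 1 of that group it was 0.082 for dusp1.

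The best known members were not called. The Fos gene fosab measured 13.77, 13.53 and 11.41 at 12 h and 12.63, 11.64 and 10.94 at 24 h, with overlapping groups, a change of -1.17 ± 0.55 and an adjusted p of 0.14 in limma. The change was -1.32 ± 0.68 for egr1 and -0.92 ± 0.36 for junbb, and both had overlapping groups. The single riser was myca, a Myc gene of growth, by 1.08 ± 0.21, from 6.89, 5.72 and 6.51 to 7.43, 7.33 and 7.58. In the fit of the 6 arrays alone the calls of atf3, myca, ier5, dusp5, nr4a1, dusp1, dusp2 and klf4 were lost, and those of klf2b and fosl1b held.

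**Figure D3:**
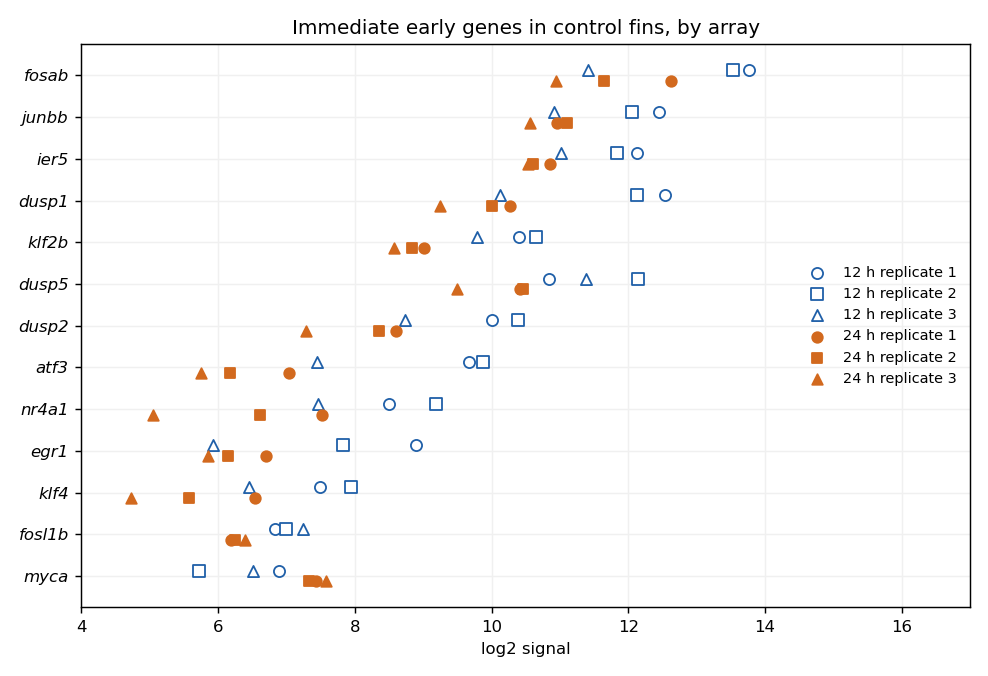
Log2 signal of 13 immediate early genes on each of the 6 control arrays, with open symbols for 12 h, filled symbols for 24 h and one shape for each replicate number. Replicate 3 of the 12 h group, the open triangle, lies at 11.41 for fosab and 7.45 for atf3, below the other 12 h arrays, and myca is the one gene shown whose 24 h arrays lie above all 12 h arrays.

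Cytokine and acute stress genes fell in 8 of 32 tested members and rose in 1, with a median of -0.33. Without replicate 2 of the 12 h group or without replicate 3 of the 24 h group 3 members fell. The chemokine ccl25b fell by 1.38 ± 0.26 and the growth arrest gene gadd45bb by 1.17 ± 0.24 on the log2 scale. The chemokine receptor cxcr4a measured 9.64, 8.91 and 6.96 at 12 h and 7.18, 6.16 and 6.68 at 24 h, with overlapping groups. Its fall of 1.83 ± 0.54 was lost without replicate 1 of the 12 h group (adjusted p = 0.11 in limma), without replicate 2 of either group (0.078 and 0.092) and without replicate 3 of the 24 h group (0.055).

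The paralogous ligands of this receptor family moved apart. The chemokine cxcl12b measured 7.02, 6.60 and 6.65 at 12 h and 5.73, 5.17 and 5.66 at 24 h, a fall of 1.24 ± 0.18, and cxcl12a measured 3.90, 3.97 and 4.14 against 4.68, 5.03 and 5.19, a rise of 0.96 ± 0.18. Both were called in limma, with adjusted p values of 6.3e-05 and 0.00062. The NF-kappaB inhibitor gene nfkbiaa fell by 1.04 ± 0.27, and lost its call without replicate 2 of the 12 h group (adjusted p = 0.060 in limma) or replicate 3 of the 24 h group (0.062). The cytokine feedback inhibitor socs3a stayed between 12.28 and 13.58 on the 6 arrays, with a change of -0.49 ± 0.25 that was not called. The calls of gadd45bb, cxcr4a and nfkbiaa were also lost in the fit of the 6 arrays alone.

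Heat shock proteins and cytosolic chaperones fell in 15 of 46 tested members and rose in 2, with a median of -0.17, and leaving out single arrays gave 13 to 16 falling members. The Hsp90 gene hsp90aa1.2 fell from 11.87, 11.61 and 11.38 to 10.00, 9.79 and 9.42, by 1.88 ± 0.29 on the log2 scale or 3.69-fold. The Hsp70 family genes hspa8b and hsp70.3 fell by 1.59 ± 0.15 and 1.55 ± 0.36, and the small heat shock protein gene hspb1 by 1.19 ± 0.22. The constitutive members hspa8 and hsp90ab1 were not called, with changes of -0.15 ± 0.07 and 0.21 ± 0.09 at levels of 13.68 to 14.13.

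The ring-shaped chaperonin that folds actin and tubulin has 8 tested subunits on this list, tcp1 and 7 named cct, of which 3 fell and none rose. Their changes ran from -0.59 to -0.13, with cct2 at -0.59 ± 0.12 and cct4 at -0.39 ± 0.09. The Hsp70 nucleotide exchange factor hspa4a fell by 0.66 ± 0.11 and the mitochondrial chaperonin hspd1 by 0.47 ± 0.09. The Hsp90 cochaperone ptges3a was one of the risers, by 0.80 ± 0.16. The calls of hsp70.3 and cct4 were lost in the fit of the 6 arrays alone.

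In the endoplasmic reticulum 9 members rose, 10 fell and 35 were not called of 54 tested, and 6 fell without replicate 2 or without replicate 3 of the 24 h group. Enzymes and folding helpers of collagen were found among risers and fallers. The prolyl isomerases fkbp10b, fkbp9 and fkbp14 rose by 0.89 ± 0.10, 0.75 ± 0.12 and 0.59 ± 0.15, the lysyl hydroxylase plod1a by 0.79 ± 0.14, the collagen prolyl hydroxylase subunit p4ha1b by 0.79 ± 0.22 and the prolyl hydroxylation cofactor crtap by 0.53 ± 0.09. The subunit p4ha2 fell by 0.97 ± 0.23, and the collagen chaperone serpinh1b had the largest fall of the list, at 1.1 ± 0.37. The call of p4ha1b was lost without replicate 2 of the 12 h group (adjusted p = 0.078 in limma) or replicate 1 of the 24 h group (0.071). The call of serpinh1b was lost without replicate 1 or 2 of the 12 h group (0.13 and 0.10) and without replicate 2 or 3 of the 24 h group (0.11 and 0.17), and in 5 fits with another filter, moderation, normalization or without the 0 h arrays (0.050 to 0.075). Genes known from the unfolded protein response were also mixed. The chaperone hsp90b1 fell by 0.59 ± 0.11, the degradation factor herpud1 by 0.71 ± 0.17 and the stress transcription factor atf4a by 0.50. The transcription factor xbp1 rose by 0.42 ± 0.08, and the main chaperone hspa5 was not called, at -0.19 ± 0.14. The calls of herpud1, xbp1 and serpinh1b were lost in the fit of the 6 arrays alone.

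The blastema and wound epidermis list, drawn up from genes known in fin regeneration, rose in 27 of 58 tested members and fell in 3, with a median change of 0.43. Leaving out single arrays gave 23 to 28 rising members. The list was chosen with earlier results of these arrays known, and its direction is not independent evidence. Its 3 fallers were fn1a, fibronectin, tgfb1a, a Tgf-beta ligand, and the chaperonin hspd1. The call of fn1a was lost without replicate 2 of the 12 h group (adjusted p = 0.051 in limma) and that of tgfb1a without replicate 3 of the 24 h group (0.052).

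The homeobox genes of the Msx family are markers of the blastema, and all 4 tested members rose. The gene msx1b measured 8.42, 7.97 and 7.92 at 12 h and 9.13, 8.93 and 9.25 at 24 h, a rise of 1.00 ± 0.18. The rises were 1.40 ± 0.33 for msx3, 0.77 ± 0.20 for msx2a and 1.15 ± 0.30 for msx2b, and the last lost its call without replicate 2 of the 12 h group (adjusted p = 0.063 in limma). The mesenchymal bHLH factors twist1a and twist3 rose by 1.23 ± 0.26 and 0.93 ± 0.16. The distal-less gene dlx5a, active in the fin fold of the embryo, had the largest change of these but overlapping groups, at 8.01, 5.97 and 5.64 at 12 h and 7.99, 8.41 and 9.22 at 24 h, with a rise of 2.00 ± 0.41.

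Further risen members of the list encode growth signals and matrix proteins, kinds of gene that the fallers tgfb1a and fn1a also belong to. The Fgf ligand fgf10a rose by 1.05 ± 0.25, the insulin-like growth factor igf2b by 0.91 ± 0.13, and lfng and her6 of the Notch pathway by 1.05 ± 0.21 and 1.07 ± 0.26. The matrix genes lamb1a, postnb and tncb, encoding a laminin, a periostin and a tenascin, rose by 0.88 ± 0.13, 0.79 ± 0.12 and 1.00 ± 0.27. The call of tncb was lost without replicate 1 of the 12 h group (adjusted p = 0.065 in limma) or replicate 2 of the 24 h group (0.051). The blastema marker tph1b was high and tight at both times, between 10.69 and 10.84 at 12 h and between 11.63 and 11.72 at 24 h, a rise of 0.91 ± 0.15. The signal of shha, a Hedgehog ligand of the later wound epidermis, stayed at the floor, between 2.73 and 2.89 on all 6 arrays. In the fit of the 6 arrays alone the calls of msx3, msx2b, twist1a, dlx5a, fgf10a, lfng, her6, tncb, fn1a and tgfb1a were lost, and those of msx1b, msx2a, twist3, igf2b, lamb1a, postnb and tph1b held.

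Homeobox and patterning factors rose in 18 of 57 tested members (31.6%) and fell in 5 (8.77%), beside 11.6% and 9.70% of all genes. On the array 82 more were too dim to test. Since a member could pass the filter through its level at 24 h or on other arrays, the tested members do not stand for all members. Falling members numbered 8 without replicate 3 of the 12 h group, 2 without replicate 2 of the 24 h group and 3 without replicate 3 of that group. Besides the Msx and Twist genes, dlx2b rose by 1.35 ± 0.19 and pax9 by 0.97 ± 0.22. On the 12 h arrays dlx2b lay at 3.97 to 4.48 and pax9 at 3.11 to 4.04, near the floor. All 8 tested Dlx genes had positive changes, from 0.03 to 2.00, and 4 were called. The forkhead gene foxc1b fell by 1.85 ± 0.43 on the log2 scale and meis1b, a cofactor of Hox proteins, by 1.24 ± 0.29, and both calls held with each array left out. The calls of pax9, foxc1b and meis1b were lost in the fit of the 6 arrays alone.

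Among signalling pathways, the Bmp and Tgf-beta list split evenly, with 7 of 40 tested members rising and 7 falling. That is 17.5% in each direction, beside 11.6% and 9.70% of all genes, and 4 fell without replicate 3 of the 24 h group. Of 11 tested ligands 3 rose and 2 fell. Of the risers, gdf6a measured 5.21, 3.63 and 3.92 at 12 h and 5.89, 6.19 and 6.27 at 24 h, bmp5 rose by 1.2 ± 0.24 and bmp4 by 0.80 ± 0.15. The ligands bmp2b and tgfb1a fell by 0.37 ± 0.12 and 0.45 ± 0.12. The call of bmp2b was lost without replicate 3 of the 12 h group (adjusted p = 0.20 in limma), without replicate 1 or 2 of the 24 h group (0.12 for each) and without the 0 h arrays (0.052). The decoy receptor bambia rose by 1.29 ± 0.28. Of 5 tested Id genes, which are Bmp targets, 1 fell and 1 rose: id3 fell by 1.52 ± 0.27 on the log2 scale and id1 rose by 0.83 ± 0.23. The call of id1 was lost without replicate 2 of the 12 h group (adjusted p = 0.12 in limma) and without replicate 3 of the 24 h group (0.099). The calls of bmp2b and id1 were also lost in the fit of the 6 arrays alone. The ubiquitin ligase gene smurf2, whose product degrades Smad proteins, fell by 0.71 ± 0.14. The Wnt list rose in 6 of 28 members and fell in none, and 22 were not called. Leaving out single arrays gave 4 to 8 rising members. Its risers included the receptors fzd2 and ror2 at 0.95 ± 0.13 and 0.71 ± 0.13 and the secreted dkk3b at 0.91 ± 0.11.

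The Fgf list had 3 rising (17.6%) and 2 falling members (11.8%) of 17, beside 11.6% and 9.70% of all genes. Without replicate 2 of the 12 h group 1 member fell. The other 12 members were not called, and further Fgf targets were among them. The Fgf target etv5a rose by 0.62 ± 0.14, a call that was lost when the mean of its probe sets was used (adjusted p = 0.17 in limma). The receptor fgfr3 measured 7.35, 7.94 and 7.57 at 12 h and 7.29, 6.66 and 5.75 at 24 h. Its fall of 1.05 ± 0.27 was lost without replicate 3 of the 24 h group (adjusted p = 0.072 in limma), and no Fgf member then fell. Of the genes of retinoic acid supply, bco1, which cleaves carotene, rose by 1.28 ± 0.23, and stra6, which imports retinol, by 1.13 ± 0.28, while the retinol carrier rbp4 fell by 0.77 ± 0.18 and the retinol-oxidising dhrs9 by 0.74 ± 0.12. The signal of aldh1a2, whose product makes the acid, was 7.28, 7.19 and 7.62 at 12 h and 8.93, 9.29 and 9.22 at 24 h, or 3.45-fold higher. Their list of Hedgehog, Notch and retinoic acid genes rose in 7 of 36 members and fell in 4. The calls of bambia, etv5a, fgfr3, stra6 and rbp4 were lost in the fit of the 6 arrays alone.

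**Figure D4:**
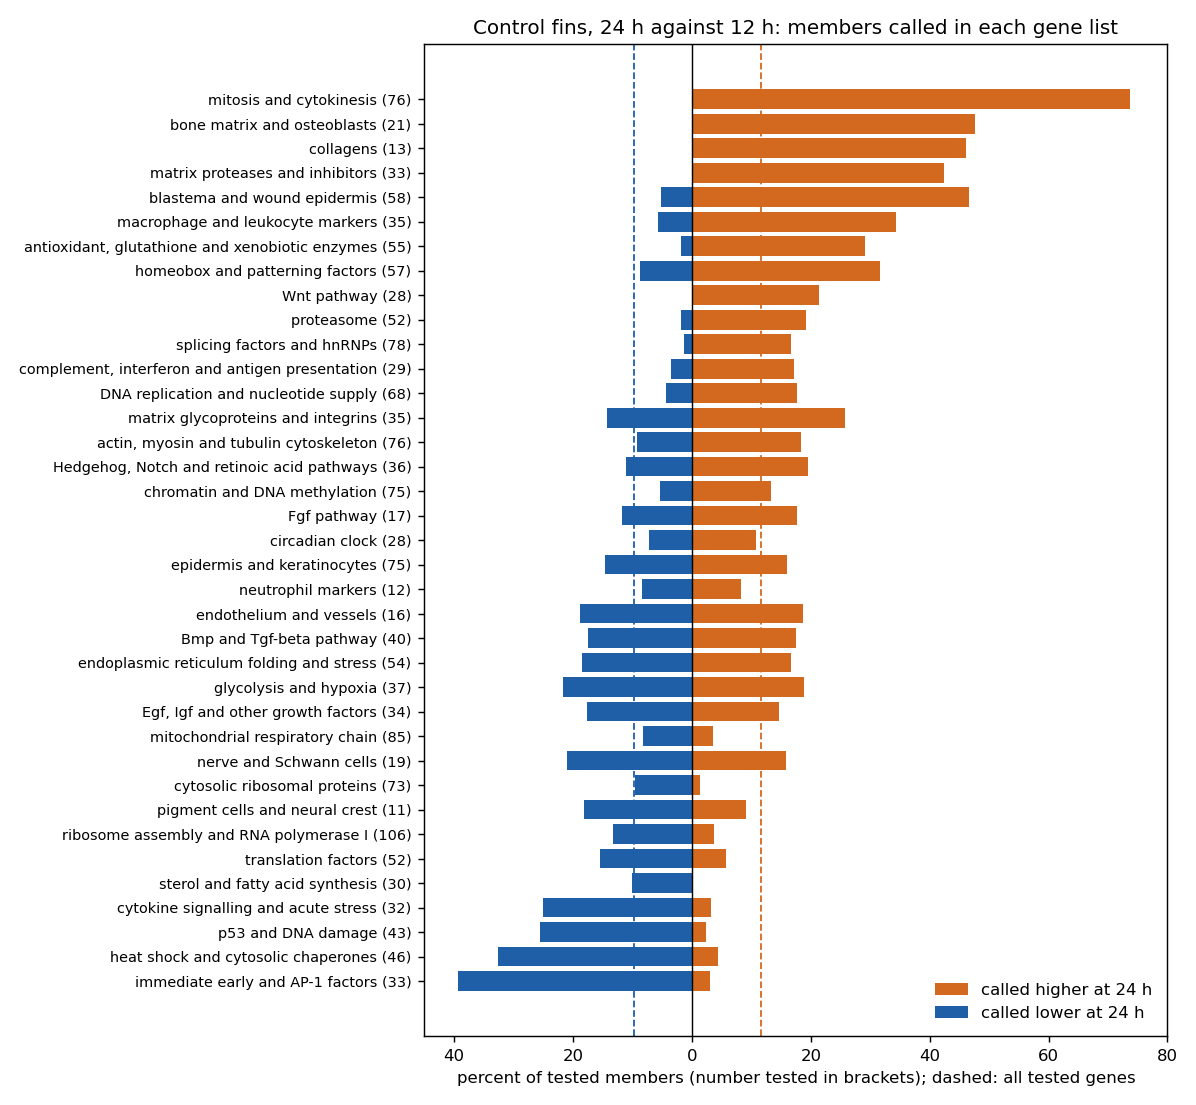
Percent of the tested members of each gene list called higher (right, orange) or lower (left, blue) at 24 h than at 12 h in control fins, for lists with at least 10 tested members and with their number in brackets. The dashed lines mark all tested genes at 11.6% and 9.70%, mitosis and cytokinesis has 56 of 76 members on the right, and the immediate early list has 13 of 33 on the left.

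The lists of bone matrix, collagens, matrix glycoproteins and matrix proteases each held more rising than falling members. Of 21 tested genes of the bone list 10 rose, 0 fell and 11 were not called, with a median of 0.45. The risers include osteoclast and general matrix genes. Leaving out an array gave 9 to 11 rising and up to 2 falling members, the latter without replicate 1 of the 24 h group. The phosphoprotein spp1, osteopontin, measured 8.23, 8.29 and 7.96 at 12 h and 9.32, 9.23 and 9.40 at 24 h, a rise of 1.15 ± 0.16. The mineralising enzyme alpl rose by 1.18 ± 0.18 and the phosphate regulator phex by 1.21 ± 0.29, both from levels near or below 4. The matrix proteins sparc and dcn rose by 0.51 ± 0.09 and 0.98 ± 0.13. The bone-resorbing enzymes acp5a and ctsk, made by osteoclasts, rose by 1.16 ± 0.27 and 0.60 ± 0.08.

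Of the osteoblast markers, sp7 was not tested and stayed at 1.79 to 1.88 on the 6 arrays, while col10a1a measured 7.67 to 8.08 at 12 h and 8.26 to 8.54 at 24 h. The change of col10a1a was 0.52 with an adjusted p of 0.066 in limma and was not called. Both Runx2 transcription factor genes on the bone list were not called either, with changes of 0.39 ± 0.20 and -0.002 ± 0.12. The collagen list rose in 6 of 13 tested members and fell in none, and col6a3, col11a1a, col1a1a and col5a2a rose by 1.09 ± 0.14, 1.05 ± 0.17, 0.45 ± 0.11 and 0.43 ± 0.09. The calls of phex, sparc and col1a1a were lost in the fit of the 6 arrays alone.

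Matrix glycoproteins rose in 9 of 35 members and fell in 5, and 14 rose without replicate 3 of the 12 h group. The epithelial laminin lama5 rose by 1.54 ± 0.27, tgfbi, an adhesion protein, by 1.35 ± 0.13, and thbs4b, a thrombospondin, by 0.95 ± 0.17. The hyaluronan link protein hapln1a and the heparan sulfate proteoglycan sdc4 fell by 1.07 ± 0.19 and 0.92 ± 0.14. Matrix proteases and their inhibitors rose in 14 of 33 members and fell in none, and in up to 1 when replicate 1 of the 12 h group or replicate 2 of the 24 h group was left out. The gelatinase mmp2 measured 8.2, 8.23 and 8.66 at 12 h and 9.61, 9.63 and 9.70 at 24 h, or 2.43-fold higher.

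Its activator mmp14b rose by 1.06 ± 0.10 and the wound gelatinase mmp9 by 0.85 ± 0.13. The collagenase mmp13a, also a wound gene, measured 9.64, 9.77 and 9.78 at 12 h and 8.60, 10.07 and 9.03 at 24 h, so that the groups overlapped and its change of -0.49 ± 0.30 was not called. The clotting transglutaminase f13a1b rose by 1.08 ± 0.21, the protease ctsc by 0.59 ± 0.14 and the inhibitor cst3 by 0.54 ± 0.13. The calls of lama5, f13a1b and cst3 were lost in the fit of the 6 arrays alone.

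The epidermis list rose in 12 of 75 members and fell in 11, close to the share of all genes, and 7 rose without replicate 3 of the 24 h group. Genes of mucus-secreting cells led its falls. The gel-forming mucin muc5.2 measured 8.06, 8.69 and 8.73 at 12 h and 5.85, 6.23 and 6.07 at 24 h, a fall of 2.44 ± 0.31 on the log2 scale or 5.44-fold. The mucin-folding enzyme agr2 followed the same course, at 8.45, 8.68 and 8.82 against 6.21, 6.48 and 6.31, and muc5.1 fell by 1.25 ± 0.18. The keratin krt99 and the calcium-binding s100v1 fell by 1.67 ± 0.22 and 0.87 ± 0.15. Other members rose: ponzr1, of the Plac8 family, by 1.41 ± 0.13, icn2, an S100 protein of the epidermis, by 0.63 ± 0.11, and the keratin krt91 by 0.60 ± 0.12 from a level above 14. The call of krt91 was lost in the fit of the 6 arrays alone.

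Blood and immune markers did not move as one. The neutrophil genes mpx and lyz lay between 2.62 and 3.40 on all 6 arrays, near the floor, and of 12 neutrophil list members 1 rose, mmp9, and 1 fell. Macrophage and leukocyte genes rose in 12 of 35 members and fell in 2, with a median of 0.19. The lipid carrier apoeb rose by 0.41 ± 0.09, the complement subunit c1qc by 0.53 ± 0.13, and the class II chaperones cd74a and cd74b, on the list of complement and antigen presentation, by 0.49 ± 0.10 and 0.55 ± 0.09. The macrophage markers marco and csf1ra were not called, with changes of 0.48 and -0.60, and so pointed in opposite directions. The haemoglobin gene hbaa1 measured 8.49, 9.93 and 7.94 at 12 h and 6.09, 6.59 and 7.47 at 24 h, a change of -2.07 ± 0.76 without overlap of the groups that was not called, with an adjusted p of 0.061 in limma. The part of blood left in the fin in the other results was not tested.

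Of the other cell types that a fin can hold, the vessel list had 3 of 16 tested members rising and 3 falling. That is 18.8% in each direction, beside 11.6% and 9.70% of all genes, and is not a result about vessels as a whole. The vessel gene plvapb rose by 1.08 ± 0.13, the endothelial factor fli1 by 0.58 ± 0.15 and tagln, of smooth muscle, by 0.88 ± 0.23. The receptors notch3 and ephb4a fell by 0.78 ± 0.20 and 0.74 ± 0.22, as did cxcr4a, and the Vegf receptor kdrl was not called, with a change of 0.11 ± 0.10. In limma the adjusted p of tagln was 0.063 without replicate 1 of the 12 h group and that of notch3 was 0.074 without replicate 2 of that group. The call of ephb4a was lost without replicate 2 or 3 of either group, at adjusted p values of 0.058 to 0.12 in limma. The pigment cell gene gch2, of pteridine synthesis, measured 5.14, 4.59 and 5.56 at 12 h and 6.73, 6.81 and 7.04 at 24 h, a rise of 1.76 ± 0.24. It was alone among the pigment markers: 3 of the 4 on the array were tested, and neither of the other two was called. The calls of apoeb, c1qc, cd74a, fli1, tagln, notch3 and ephb4a were lost in the fit of the 6 arrays alone.

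High mobility group proteins, which bend and loosen chromatin, rose in 11 of 13 tested genes and fell in none. Besides hmgb3a the nucleosome-binding hmgn2 rose from 10.78, 10.55 and 10.60 to 11.82, 11.77 and 11.83, by 1.16 ± 0.08 or 2.24-fold, and hmgb1b, hmgb1a and hmgb2a by 1.06 ± 0.10, 0.72 ± 0.12 and 0.55 ± 0.08. The family was singled out after its values were seen. The histone variant gene h2az2b rose by 0.68 ± 0.12. Both tested DNA methyltransferases changed by 0.10 or less and were not called. The whole list of chromatin and DNA methylation rose in 10 of 75 members and fell in 4, near the share of all genes, and 1 or 2 fell without replicate 2 or 3 of the 24 h group.

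Genes of the p53 and DNA damage response fell in 11 of 43 members and rose in 1, with a median of -0.19, and 6 fell without replicate 2 of the 12 h group and 7 without replicate 3 of the 24 h group. Of the list, 31 members were not called and 14 had a positive change. The cell death genes bik, casp9 and bbc3 fell by 1.67 ± 0.19, 1.00 ± 0.16 and 0.83 ± 0.21 on the log2 scale and the kinase plk2b by 1.80 ± 0.42. These were picked from the falling members and do not stand for the list. A survival gene of the Mcl1 family on the list fell as well, by 0.94 ± 0.18 on the log2 scale. Its paralog on the list was not called, with a change of -0.04 ± 0.12. At 24 h bbc3 lay at 3.04 to 3.39, near the floor, and the size of its fall depends on that floor. Antioxidant and conjugating enzymes rose in 16 of 55 members and fell in 1, and 10 rose without replicate 2 of the 12 h group. The sulfotransferase sult1st1 rose by 1.36 ± 0.26, and the glutathione transferases gstt1a, gstt1b and gstm.1 by 0.87 ± 0.21, 0.78 ± 0.16 and 0.74 ± 0.12. The 1 member that fell is a glutathione transferase too, and fell by 0.89 ± 0.23 on the log2 scale. In the fit of the 6 arrays alone plk2b and bbc3 lost their calls.

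Genes of the circadian clock were counted because the time of day is unknown. Of 28 tested members 3 rose (10.7%) and 2 fell (7.14%), beside 11.6% and 9.70% of all genes. These shares do not tell whether the hours of collection differed. Described here are the largest rise and the largest fall of the list. The light-induced repressor per2 measured 8.38, 9.21 and 9.96 at 12 h and 9.94, 10.61 and 10.60 at 24 h, with a rise of 1.2 ± 0.28 and groups that overlapped by a small margin. The call of per2 was lost in the fit of the 6 arrays alone. The ubiquitin ligase gene fbxl3a, which removes cryptochromes, fell by 1.41 ± 0.14. What part the hour of collection had in the other results was not tested.

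Changes in the housekeeping groups were small in size but not evenly split in direction. Of 73 cytosolic ribosomal protein genes 65 were not called, 7 fell and 1 rose, with a median of -0.11. Their changes were negative in 65 of 73, against 3314 of 6451 over all genes. Of 85 respiratory chain genes 75 were not called, 7 fell and 3 rose, with a median of -0.05. Of 106 ribosome assembly genes 88 were not called, 14 fell and 4 rose, with a median of -0.08 and 75 negative changes. Leaving out single arrays gave 1 to 9 falling ribosomal protein genes, 3 to 8 of the respiratory chain and 7 to 14 of ribosome assembly. In the proteasome 10 of 52 members rose (19.2%, against 11.6% of all genes) and 1 fell, and 5 or 6 rose without replicate 2 or 3 of the 24 h group. Among splicing factors 13 of 78 rose (16.7%) and 1 fell, and 7 or 5 rose without replicate 2 or 3 of the 24 h group. The largest changes in these 5 lists stayed below 1 on the log2 scale in both directions.

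The memory fins gave the same contrast on arrays of their own. The hybridisation controls differed there in the same way, at 10.08 to 10.19 at 12 h and 9.67 to 9.85 at 24 h, so that a difference in handling would be shared by both arms. The step in memory fins was called in many probe sets, with 2247 probe sets rising (22.2%) and 1773 falling (17.5%). Across the 10140 probe sets, which are not independent, the steps of the arms had a Pearson correlation of 0.554 and a Spearman correlation of 0.419. By gene, 25% rose and 16.2% fell in memory fins. Of the genes, 515 rose and 279 fell in both arms and 68 were called in opposite directions. The test of the difference between the steps, memory minus control, called 1660 probe sets (16.4%), 962 with a higher (9.49%) and 698 with a lower step (6.88%) in memory fins. By gene it called 1129 of 6451 (17.5%). Centring each array on its median turned that split to 677 and 981. The rise of and1 (5.33 and 5.75), the fall of gda (-2.88 and -2.90) and the fall of gap43 (-2.35 and -2.29) were close in control and memory fins, and none of these differences was called. In apodb the control step of -1.74 stood against a memory step of 1.61, and in dlx5a the control step of 2.00 against 4.66, and both differences were called.

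**Figure D5:**
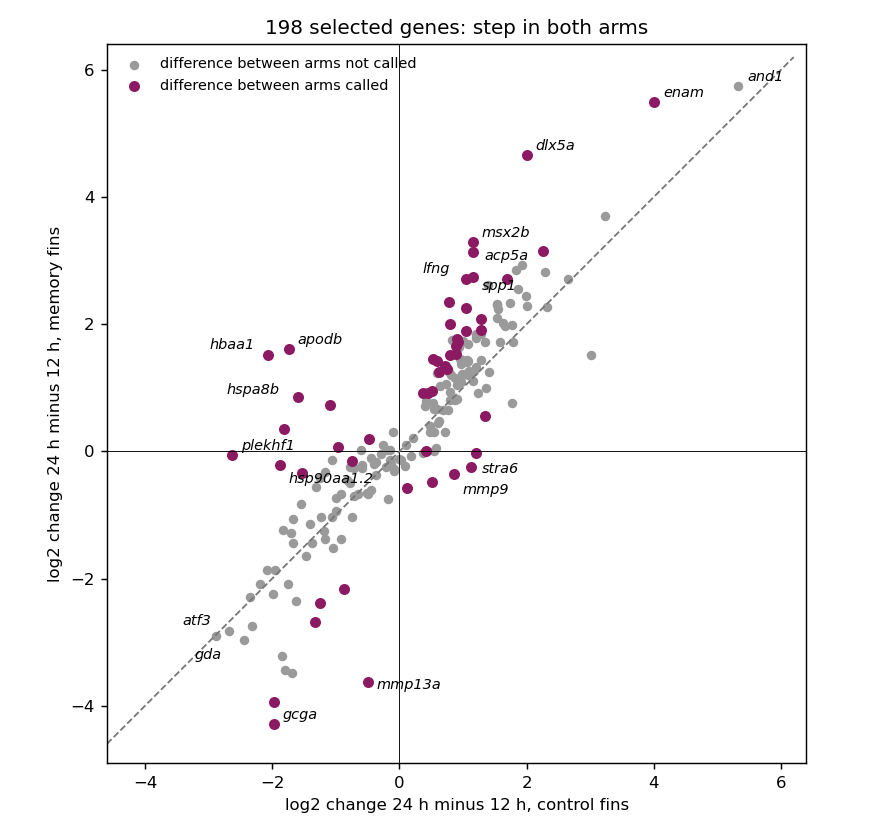
Log2 change from 12 to 24 h in control fins (horizontal axis) and in memory fins (vertical axis) for the 198 genes picked for description, with a dashed line of equal change and purple points where the difference between the steps was called in limma. The gene and1 lies near the line at 5.33 and 5.75, apodb lies in the upper left at -1.74 and 1.61, and dlx5a lies above the line at 2.00 and 4.66.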

How the data were processed

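Biotin-labelled total RNA of the fin was measured on Affymetrix zebrafish arrays, 3 a group. The authors deposited a log2 signal for each probe set, and the submitters' processing notes name GCRMA and Partek. The GCRMA method corrects background by probe sequence and normalises the arrays before it summarises probe sets, so that low signals are drawn towards a common floor and folds of dim genes are understated. Versions are not given in the sources used here, and precision is limited by the number of arrays and, for dim probe sets, by that floor. The tables held 15617 probe sets, from which 115 array controls were removed, and 5362 did not reach a log2 signal of 4 on 3 arrays.

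The means of the 8 groups were estimated together from the 24 arrays by lmFit and eBayes of limma 3.58.1 (R 4.3.3), with 16 residual degrees of freedom. The contrasts were 24 h minus 12 h in control fins, and that step in memory fins minus that in control fins. Calls are at a Benjamini-Hochberg adjusted p under 0.05 over 10140 probe sets, and ± is the standard error of the fit. Symbols came from the platform annotation, 10718 of 10802 matched through the gene number, and 918 genes had over 1 probe set. On simulated data for the control contrast, run on 10140 probe sets, changes of 0.5, 1 and 2 were recovered in 43.3%, 89.6% and 97.0% of cases, with 7 false calls. The simulation changed 67, 67 and 66 probe sets by these sizes, a smaller share than was called in the data. Its noise was normal and independent between arrays, so that the shares recovered and the false calls need not hold for these data.

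The comparison, the 43 gene lists and the genes were chosen with earlier results of these data known. By rule the named genes were the 15 largest rises and falls with 1 symbol and groups that did not overlap, up to 5 called members in each direction and 2 uncalled members of each list, and any member of the blastema, immediate early, actinodin and neutrophil lists and of the cell type markers. Named outside the rule, after their values were seen, were cdk1, cenpe, kif11, plk1, aurka, incenp, cdca8, ccna2, foxm1, pcna, the MCM genes, hspa4a, tcp1, hspa5, xbp1, bmp2b, cct2, cct4, atf4a, crtap, dcn, sparc, cst3, pax9, bmp4, apoeb, hmgb2a, bbc3 and tnnt3b, and mostly genes that kept their call were picked.

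The data do not settle whether replicate numbers pair arrays across times. Deviations from the group means of the same-numbered 12 and 24 h arrays correlated at 0.226, 0.150 and 0.205. For other numbers the correlations were -0.348 to 0.191, so that the ranges overlapped, and these values are not independent of each other. Each result was also computed without the filter, with a filter at a log2 signal of 6, with trend and robust eBayes, without moderation, after median centring, after a further quantile normalization, with the replicate number as a block, from the compared groups alone, without the 0 h arrays, with a 2-fold threshold, from the mean over a gene's probe sets and with each array left out. The compared groups alone with the block was added after seeing the data. No promoter or protein sequences were used here.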

Additional observations from a re-analysis of the deposited data

Results flagged for a closer look

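The step from 12 to 24 h was tested against the same step in memory fins for every gene named in the report, and 51 of the 198 genes differed between the arms in limma at an adjusted p under 0.05. Those genes were picked for their control step, which enters the difference, and the share over all tested genes was 17.5%. Differences below are memory minus control on the log2 scale, with their standard error, and their adjusted p values lie between 6.8e-07 and 0.047. What produced them was not tested.

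In 3 genes both steps were called, with opposite signs. The Hsp70 gene hspa8b fell by 1.59 in control fins and rose by 0.85 in memory fins, a difference of 2.44 ± 0.22 with an adjusted p of 6.8e-07. For apodb the steps were -1.74 and 1.61 and the difference 3.35 ± 0.45, and for mmp9 they were 0.85 and -0.36 and the difference -1.21 ± 0.18. The collagenase mmp13a was not called in control fins and fell by 3.62 in memory fins, a difference of -3.13 ± 0.42, and the Vegf receptor kdrl was not called in control fins and fell by 0.58, a difference of -0.69 ± 0.15.

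Genes that fell in control fins and were not called in memory fins included hsp90aa1.2 with a difference of 1.67 ± 0.41, plekhf1 with 2.57 ± 0.71, tnfsf10l4 with 2.18 ± 0.63, id3 with 1.18 ± 0.38, p4ha2 with 1.04 ± 0.32, hspd1 with 0.67 ± 0.13, serpinh1b with 1.82 ± 0.53 and dhrs9 with 0.59 ± 0.17. Genes that rose in control fins and were not called in memory fins were stra6, with a difference of -1.37 ± 0.39, xbp1, with -0.41 ± 0.12, and per2, with -1.23 ± 0.40. The markers hbaa1 and col10a1a were called in neither arm and differed by 3.59 ± 1.08 and -0.99 ± 0.27.

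Falls were larger in memory fins for gcga by -2.31 ± 0.57, slc6a17 by -1.96 ± 0.50, dusp5 by -1.35 ± 0.45, s100v1 by -1.3 ± 0.21 and muc5.1 by -1.13 ± 0.26. The rise of tgfbi was smaller there, by -0.79 ± 0.19. All other differing genes rose in both arms, by more in memory fins.

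Of blastema and patterning genes, the difference was 2.65 ± 0.59 for dlx5a, 2.14 ± 0.43 for msx2b, 1.66 ± 0.29 for lfng, 1.2 ± 0.35 for fgf10a, 0.89 ± 0.26 for zic2a and 0.80 ± 0.22 for twist3. For pathway genes it was 0.86 ± 0.16 for dkk3b and 0.62 ± 0.19 for etv5a. Of bone and matrix genes, acp5a differed by 1.97 ± 0.39, spp1 by 1.59 ± 0.22, enam by 1.48 ± 0.43, col11a1a by 0.85 ± 0.25, ctsk by 0.83 ± 0.12, lamb1a by 0.78 ± 0.18, mmp2 by 0.63 ± 0.18, col1a1a by 0.46 ± 0.15 and sparc by 0.44 ± 0.13. The collagen hydroxylase subunit p4ha1b differed by 1.22 ± 0.32. The collagen helpers crtap, plod1a, fkbp10b and fkbp9 differed by 0.93 ± 0.12, 0.73 ± 0.19, 0.63 ± 0.13 and 0.55 ± 0.17. Among cell cycle and chromatin genes the differences were 1.02 ± 0.28 for cdca8, 0.80 ± 0.26 for ccna2, 0.63 ± 0.16 for hmgb1a and 0.55 ± 0.14 for pcna, and the transferase gstt1b differed by 1.57 ± 0.22.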

How the results depend on the processing

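Of the 170 named genes called in control fins, 151 kept their call and direction under no filter, the filter at 6 where tested, trend and robust estimation, no moderation, median centring, quantile normalization, the replicate block, the fit without the 0 h arrays and each array left out. The other 19 lost it when a single array was left out, as given with them, and 2 of these, serpinh1b and bmp2b, under other settings too. None of the 170 reversed. With the replicate number as a block 1189 probe sets rose and 964 fell, 1993 of the calls were shared with the unblocked fit, and no called named gene lost its call. The 6 arrays alone, with their own estimate of the spread, gave 438 rising and 252 falling probe sets and 110 of the 170 named calls, or 492, 319 and 119 with the replicate block added, a fit chosen after seeing the data, and the compared groups alone gave 632 higher steps in memory fins. Not every named call lost in the fit of the 6 arrays alone is given with its gene. The 2-fold threshold left 193 and 144, and the mean of all probe sets ended the call of etv5a alone. Median centring gave 989 rising and 1076 falling probe sets, and 677 higher and 981 lower steps in memory fins. Leaving out single arrays gave 804 to 1119 rising and 523 to 933 falling probe sets in control fins, and 663 to 1128 higher and 455 to 781 lower steps in memory fins. Of uncalled genes, mcm7 reversed without replicate 3 of the 12 h group, with a range over arrays left out of -0.30 to 0.11, and shha, at the floor, ranged from -0.049 to 0.028 and was 0.010 after quantile normalization. The change of cdh17, near 0, ranged from -0.090 to 0.199 over arrays left out and was -0.0016 after median centring. Apart from the smaller number of arrays, the cause of these changes was not tested. With 3 arrays a time, changes of 0.5 were recovered in 43.3% of simulated cases, and changes of this size can be missed. The simulation changed a smaller share of probe sets than was called here, so that this percentage need not hold for these data.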
